A study of Homo sapiens with 40 samples.

Results

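INPP5D and 8 other genes of phosphoinositide signalling were followed across 40 RNA-seq libraries of human microglia-like cells. The set is a list of gene names: the lipid phosphatases INPP5D, INPPL1 and INPP4A, the phospholipase PLCG2, the PI3-kinase catalytic subunits PIK3CD and PIK3CG, and the PI3-kinase regulators PIK3R1, PIK3R5 and PIK3AP1. All 9 were found by Ensembl ID among the 60504 genes of the deposited table, and all 9 passed a filter of at least 1 TPM (a transcript abundance scaled by length and to one total in every library) in at least 7 libraries, which 14855 genes passed. The lowest value of any member in any library was 15.9 TPM (INPP4A), so none entered through a single group.

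The cells were differentiated in culture from the human embryonic stem cell line H9, or from H9 clones edited with CRISPR/Cas9. Unedited H9 (WT) gave 7 libraries, the TREM2-KO line 8 and the TREM2-R47H line 7. SORL1-KO (an R744X stop change in the labels) and SORL1-A528T gave 7 each, and the CD33 SNP and INPP5D SNP lines 2 each. Every edit is homozygous per the labels. H9 carries both alleles of the INPP5D polymorphism, so by derivation the other lines are heterozygous there, and the INPP5D SNP line alone was made homozygous for A. All groups shared 1 culture scheme: blood progenitors were harvested on day 11 and matured over 28 days in M-CSF (25 ng/mL), IL-34 (100 ng/mL) and the growth factor TGF-beta 1 (50 ng/mL), and for the last 3 days CX3CL1 and CD200 were present too (each at 100 ng/mL). The labels give neither the number of clones per line nor what a library number stands for, and p-values therefore measure the spread between libraries, which may be technical.

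Phosphoinositides are membrane lipids whose inositol ring is phosphorylated and dephosphorylated at defined positions. Class I PI3-kinases make the lipid PIP3 at an active receptor; PIP3 recruits kinases such as AKT and BTK, and phospholipase C enzymes split its precursor into diacylglycerol and the calcium-releasing messenger IP3. In myeloid cells SHIP1, the product of INPP5D, removes the 5-phosphate of PIP3 and is recruited by inhibitory receptors and adaptors, while PLCG2 acts downstream of TREM2 and its partner TYROBP. INPP5D and PLCG2 both lie at loci associated with Alzheimer's disease.

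TPM keeps no counts, and the depth behind each library's values is unknown; per the labels it averaged 45.13 M and ranged between 39.2 M and 64.6 M. Between 13208 and 14086 genes reached 1 TPM per library. All 15 microglia and macrophage markers reached a mean of 1 TPM in every group. TREM2 was 24.6 to 46.5 TPM in TREM2-KO against 295 to 585 in WT. SORL1 was 12.6 to 21.5 TPM in SORL1-KO and 18.6 to 43.2 in WT, so those ranges overlapped. For the base changes of the other 4 lines gene-level TPM gives no check. Median correlation with the other libraries was lowest in TREM2-KO library 8, SORL1-KO library 7 and SORL1-A528T library 7 (0.93, 0.94 and 0.94). For some comparisons values without these libraries are given too.

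In WT cells the adaptor and the 5-phosphatases were the most abundant members, and TPM, which is scaled by transcript length, allows the comparison between genes. PIK3AP1 (BCAP), an adaptor that couples immune receptors to class I PI3-kinases, had 138 TPM ± 21.9 (SD, n = 7) and INPP5D had 123 ± 6.15 (SD, n = 7); these neighbours overlapped, with PIK3AP1 the higher in 5 of 7 libraries. INPPL1, which encodes SHIP2, the second SHIP phosphatase, followed at 95.2 ± 6.93 TPM, and INPP5D exceeded it in all 7 libraries. PIK3R5, the regulatory subunit through which G-protein-coupled receptors engage the gamma kinase, was at 79.1 ± 5.43 TPM. The kinase subunits PIK3CG and PIK3CD had lower means, at 66.9 ± 4.44 and 65.7 ± 7.13. PIK3R5 did not overlap PIK3CG, but PIK3CD exceeded it in library 5 (74.7 against 74.4 TPM) and library 6 (75.3 against 73.4). PIK3CG and PIK3CD did not differ beyond their spread, PIK3CG being the higher in 3 of 7 libraries. PLCG2 at 43.8 ± 2.91, PIK3R1 (the regulatory subunit of the alpha, beta and delta kinases) at 33.7 ± 1.88 and the 4-phosphatase INPP4A at 23.0 ± 3.08 TPM came last, with no overlap between neighbours. INPP5D stood above 92.3% of all genes that passed the filter in WT, and INPP4A above 63.0%.

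That order of mean levels from PIK3AP1 to INPP4A was the same in SORL1-KO, SORL1-A528T, CD33 SNP and INPP5D SNP. In TREM2-KO, INPP5D and PIK3AP1 exchanged the leading places, at 130 ± 13.3 and 120 ± 13.5 TPM (SD, n = 8). In TREM2-R47H, PIK3R5 moved from rank 4 to rank 7, at 43.5 ± 3.62 TPM (SD, n = 7), beside PLCG2 at 44.2 ± 6.97. The other members kept their order there. The plot of each library shows the levels gene by gene.

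**Figure D1:**
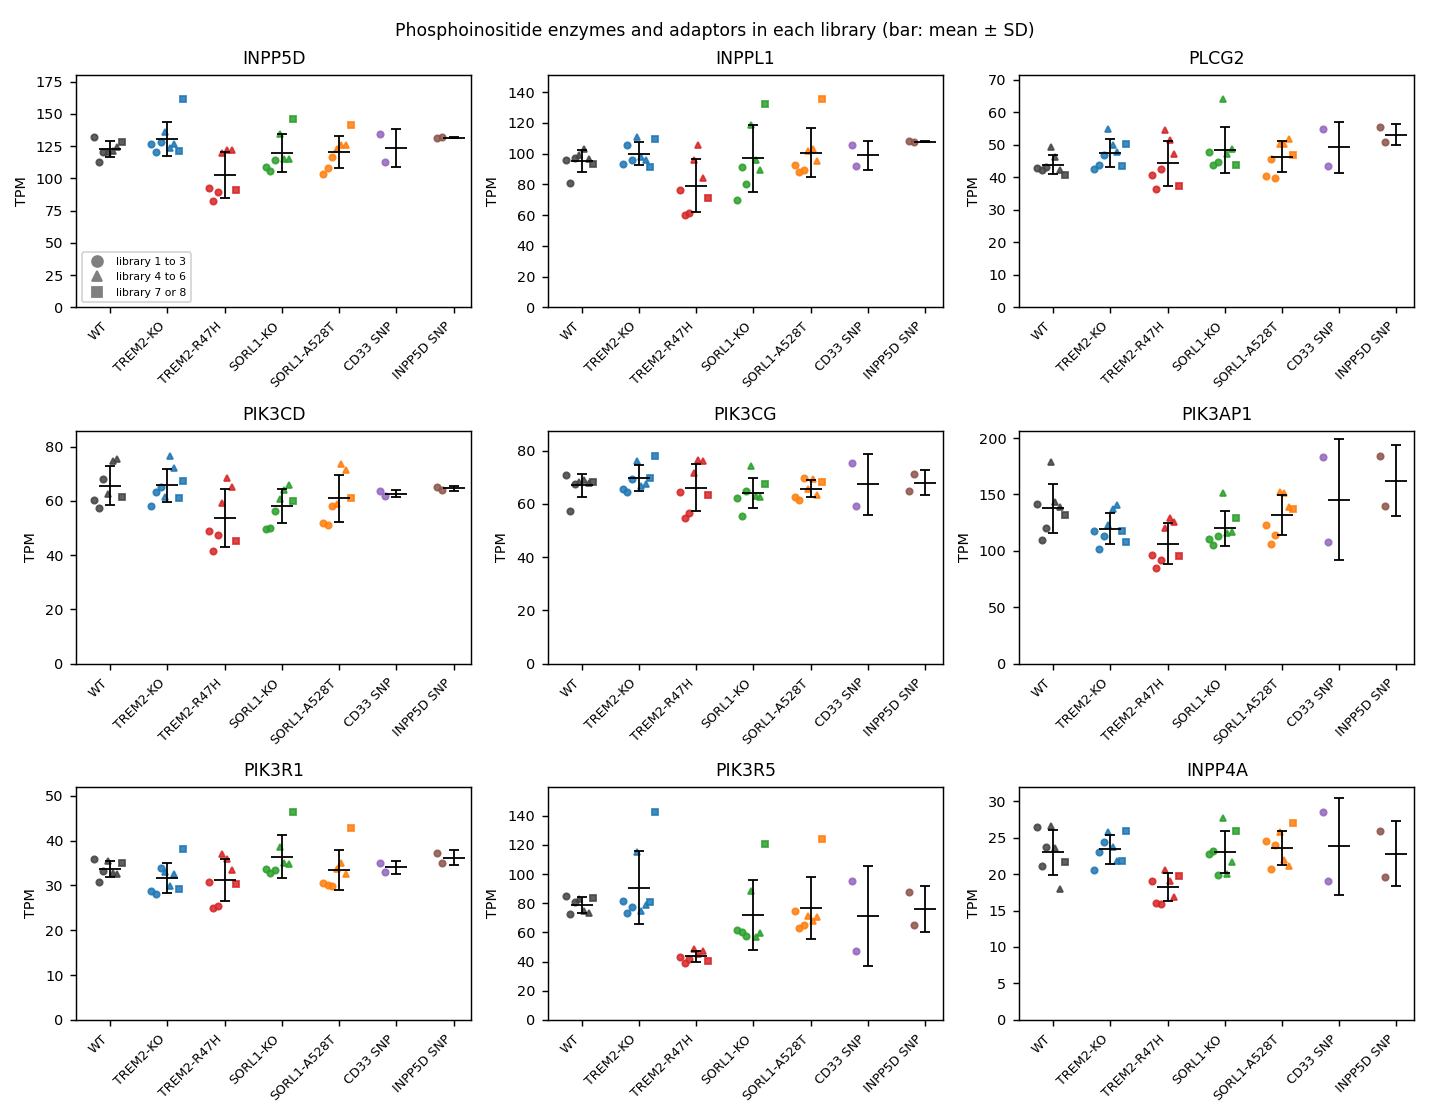
TPM of the 9 genes (vertical axis, from 0) in each library of the 7 groups (horizontal axis); marker shapes give the library number in the labels, and bars are the mean ± SD. The 7 TREM2-R47H libraries lie between 39.1 and 48.7 TPM for PIK3R5, below all 7 WT libraries, and for INPP5D they fall into a set at 82.3 to 92.7 and a set at 119 to 122.

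Several members exceeded their closest relatives. PLCG2 exceeded PLCG1, the widely expressed paralogue, by a factor of 6.72 ± 1.54 within WT libraries (ratio of TPM, SD, n = 7), PIK3R5 exceeded PIK3R6, the other regulator of the gamma kinase, by 17.97 ± 3.89, and INPP4A exceeded INPP4B by 2.90 ± 0.448. PIK3CD and PIK3CG stood above the ubiquitous catalytic subunits PIK3CB (23.1 TPM) and PIK3CA (10.6 TPM). Of 10 inositol 5-phosphatases listed, 9 reached 1 TPM in WT, with INPP5D and INPPL1 the highest. In the phospholipase C list PLCG2 came after PLCB2, an isoform activated by G proteins, at 169 TPM.

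The INPP5D gene lies on chromosome 2 (GRCh38, 233059967 to 233207903, plus strand, GENCODE 29), INPP4A also on chromosome 2 (98444854 to 98594390, plus), INPPL1 on chromosome 11 (72223701 to 72239105, plus) and PLCG2 on chromosome 16 (81739097 to 81962693, plus). PIK3CD lies on chromosome 1 (9651732 to 9729114, plus), PIK3CG on chromosome 7 (106865278 to 106907145, plus), PIK3R1 on chromosome 5 (68215720 to 68301821, plus), PIK3AP1 on chromosome 10 (96593312 to 96720514, minus) and PIK3R5 on chromosome 17 (8878911 to 8965712, minus). All 9 are protein-coding, and TPM sums over each gene's transcripts and both alleles.

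Promoter windows from RefSeq (GRCh38.p14, 250 bases before to 50 after a start) were found for all 9 genes, 18 windows in all. They were searched for GAGGAAG on both strands (its reverse complement is CTTCCTC), the purine-rich core bound by the myeloid factor PU.1; the motif was chosen after some of these windows had been read. It occurred in 7 of the 18 windows and in at least 1 window of 7 of the 9 genes, PIK3CD and INPP4A being those without it, while 13.6% of 34943 RefSeq promoter windows of that length hold it. A gene with several windows has more chances to hold a match, and a match describes letters only, not a bound site. The windows below belong to INPP5D, whose polymorphism was edited, to PIK3R5, which differed most between lines, and to PLCG2, which was called in no comparison; capitals mark the match, and each reads 5′ to 3′ on the gene's own strand.
INPP5D, chr2:233060092-233060391, plus strand: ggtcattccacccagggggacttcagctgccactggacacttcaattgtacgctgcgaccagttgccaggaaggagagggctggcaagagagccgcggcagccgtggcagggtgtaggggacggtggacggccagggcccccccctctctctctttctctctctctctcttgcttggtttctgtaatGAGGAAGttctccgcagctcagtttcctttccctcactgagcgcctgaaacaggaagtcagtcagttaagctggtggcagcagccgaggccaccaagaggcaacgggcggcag
PIK3R5 upstream start, chr17:8965658-8965957, minus strand: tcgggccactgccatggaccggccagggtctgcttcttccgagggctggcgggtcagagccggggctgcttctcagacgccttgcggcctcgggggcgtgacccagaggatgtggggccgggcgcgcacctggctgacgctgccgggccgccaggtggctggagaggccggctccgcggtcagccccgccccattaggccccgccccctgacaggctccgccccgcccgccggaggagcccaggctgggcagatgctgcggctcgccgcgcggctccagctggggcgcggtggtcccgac
PIK3R5 downstream start, chr17:8912468-8912767, minus strand: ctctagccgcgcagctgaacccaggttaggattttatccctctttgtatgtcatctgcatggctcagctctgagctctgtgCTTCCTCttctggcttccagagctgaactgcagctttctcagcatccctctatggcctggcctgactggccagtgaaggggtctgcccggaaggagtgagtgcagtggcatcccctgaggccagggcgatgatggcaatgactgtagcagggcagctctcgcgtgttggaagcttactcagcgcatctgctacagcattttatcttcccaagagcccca
PLCG2, chr16:81738791-81739090, plus strand: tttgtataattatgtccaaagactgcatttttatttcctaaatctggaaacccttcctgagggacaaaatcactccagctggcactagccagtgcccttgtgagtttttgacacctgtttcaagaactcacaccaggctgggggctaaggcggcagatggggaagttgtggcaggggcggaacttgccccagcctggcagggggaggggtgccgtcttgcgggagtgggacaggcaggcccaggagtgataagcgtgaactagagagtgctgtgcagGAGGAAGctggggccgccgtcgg
The INPP5D match begins 63 bases before the start and the PLCG2 match 28 bases after it. In PIK3R5 the window of the downstream start holds the reverse form, 169 bases before the start, and the upstream window holds none. The table does not separate transcripts, so levels from the 2 PIK3R5 starts cannot be told apart.

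In TREM2-R47H against WT, 5 of the 9 genes were called (limma on log2(TPM + 1), Benjamini-Hochberg adjusted p below 0.05 over all genes that passed the filter), all of them lower: PIK3R5, INPP4A, PIK3AP1, INPP5D and PIK3CD. INPPL1, PIK3R1, PIK3CG and PLCG2 were not called. Of all genes tested, 11.4% were called and 8.77% were called lower, 1303 lower against 390 higher. The members' median difference was -0.29 on the log2 scale, and that of all genes -0.06. In bulk RNA, fewer cells of a type and less RNA per cell cannot be told apart. Median-ratio scaling shifted the median difference of all genes by 0.07, changed the split of calls to 831 lower and 600 higher, and left PIK3R5 the one member called.

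PIK3R5 differed most. It measured from 39.1 through a median of 42.9 to 48.7 TPM in TREM2-R47H, and from 72.5 through 81.2 to 85.2 in WT. Every TREM2-R47H library lay below every WT library, as it did for 3.51% of all genes. The difference was -0.85 ± 0.16 (log2, SE; limma adjusted p = 0.00045), and it was called under each of the 15 other settings run, with values between -0.93 and -0.70. Within a library, PIK3R5 divided by its catalytic partner PIK3CG does not depend on scaling between libraries. That ratio of TPM was 0.589 to 0.735 in TREM2-R47H and 1.08 to 1.27 in WT, and in the other 5 lines it was never below 0.797. The levels themselves were less separate. The 2 CD33 SNP libraries had PIK3R5 at 47.05 and 95.6 TPM, the first inside the TREM2-R47H range, and those of INPP5D SNP had 64.97 and 87.5. Median levels were 59.95 TPM in SORL1-KO and 70.8 in SORL1-A528T, below the lowest WT library at 72.5. PIK3CG itself was 66.1 ± 8.76 TPM in TREM2-R47H and 66.9 ± 4.44 in WT (difference -0.03, 95% interval -0.17 to 0.12, limma adjusted p = 0.886). PIK3R6, the alternative regulator, was at 4.8 TPM in TREM2-R47H and 4.66 in WT.

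Among the phosphatases, INPP5D was lower in TREM2-R47H by 0.27 ± 0.09 on the log2 scale (limma adjusted p = 0.0345). It was called in 8 of 15 other settings, the fewest of the 5 members called, with values from -0.46 to -0.01. It ran from 82.3 through a median of 92.7 to 122 TPM there and from 113 through 121 to 132 in WT. All 7 TREM2-R47H libraries were below the WT mean, but 3 of them lay inside the WT range. An exact permutation test of INPP5D alone, over the 3432 ways to divide the 14 libraries, gave a two-sided p = 0.0251, and 0.150 after adjustment over the 6 lines compared with WT. With the stromal marker score (the mean log2 level of 12 stromal and endothelial markers) as a covariate the difference was -0.23 with limma adjusted p = 0.178, and under quantile normalization -0.18 with 0.315.

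INPP4A, which removes a phosphate from PI(3,4)P2, the product of SHIP enzymes, measured from 15.9 through 19.1 to 20.6 TPM in TREM2-R47H and from 17.9 through 23.6 to 26.6 in WT. The ranges overlapped at WT library 6, the lowest of its group, and all 7 TREM2-R47H libraries were below the WT mean. The difference was -0.32 ± 0.09 (log2, SE; limma adjusted p = 0.0192), called in 12 of 15 other settings. INPPL1 had a difference of -0.29 ± 0.12, similar to that of INPP5D, with wider spread: 60.2 to 105 TPM against 81.1 to 103 in WT, and limma adjusted p = 0.103. Library numbers were taken to pair the libraries of TREM2-R47H and WT, though only 4 of 7 TREM2-R47H libraries correlated best with the WT library of their number. With the number as a block INPPL1 was called (limma adjusted p = 0.0375 in the fit of all libraries and 0.0366 in the fit of the 2 groups), while INPP5D had 0.00568 and 0.0514. The ratio of INPP5D to INPPL1 within a library was 1.31 ± 0.119 in TREM2-R47H and 1.29 ± 0.0880 in WT (SD, n = 7 each).

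PIK3AP1 measured from 85.1 through 96.5 to 129 TPM in TREM2-R47H and from 110 through 139 to 179 in WT. Libraries 1, 2, 3 and 7 of TREM2-R47H were below the whole WT range and libraries 4 to 6 within it. Its difference was -0.37 ± 0.12 (log2, SE; limma adjusted p = 0.0294), called in 10 of 15 other settings. PIK3CD, the catalytic subunit that SYK-linked receptors use in leukocytes, ran from 41.6 through 49.0 to 68.7 TPM against 57.3 through 62.6 to 75.3 in WT, and the same 4 libraries were below all of WT. Its difference was -0.30 ± 0.10 (limma adjusted p = 0.0379), called in 9 of 15 other settings. PIK3R1 was 31.1 ± 4.73 TPM against 33.7 ± 1.88 (difference -0.12, 95% interval -0.30 to 0.05, adjusted p = 0.433). PLCG2, which acts downstream of TREM2, was 44.2 ± 6.97 against 43.8 ± 2.91 TPM (difference 0.00, 95% interval -0.17 to 0.18, limma adjusted p = 0.997).

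**Figure D2:**
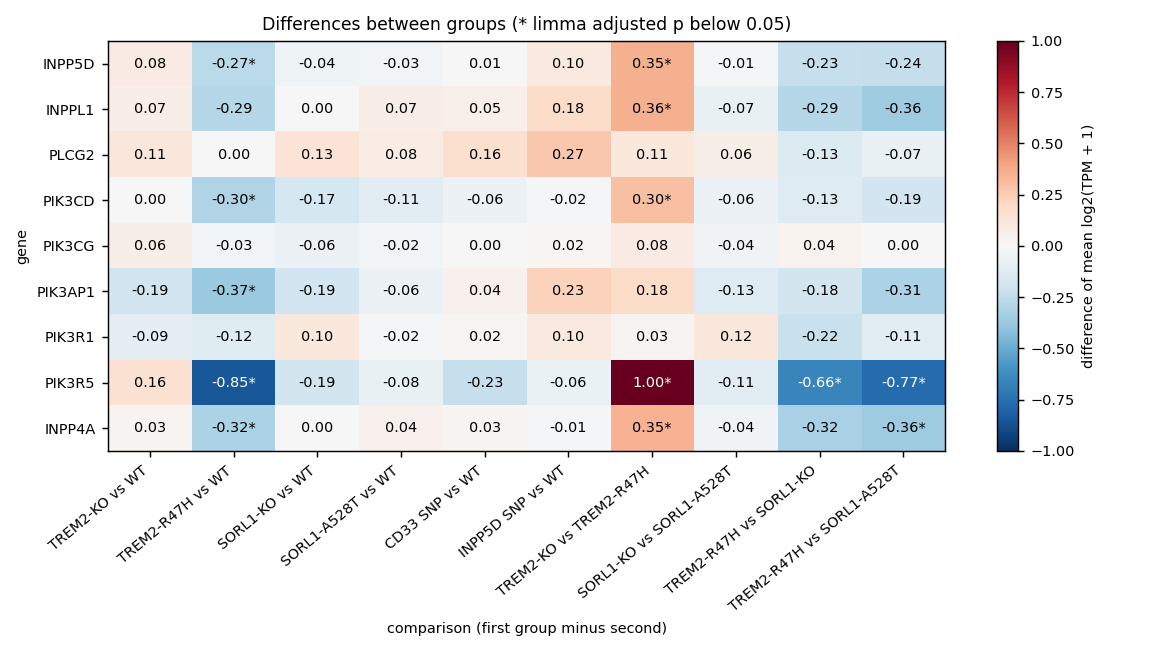
Difference of mean log2(TPM + 1), first group minus second, for the 9 genes (rows) in 10 comparisons (columns); an asterisk marks a limma adjusted p below 0.05. Called cells occur in comparisons that involve TREM2-R47H, where PIK3R5 has the values -0.85 against WT and 1.00 for TREM2-KO against TREM2-R47H.

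All members other than INPP4A divided by library number in TREM2-R47H. The share of all genes that divided in this way was not determined. INPP5D was 82.3 to 92.7 TPM in libraries 1 to 3, 90.7 in library 7, and 119 to 122 in libraries 4 to 6, whereas WT was 113 to 132 in libraries 1 to 3 and 120 to 124 in libraries 4 to 6. PIK3CD was 41.6 to 49.0, 45.2 and 59.1 to 68.7 TPM in the same 3 sets of TREM2-R47H, and INPPL1 was 60.2 to 76.4, 71.1 and 83.8 to 105. In the same sets PLCG2 was 36.3 to 42.5, 37.3 and 47.05 to 54.4 TPM, and PIK3CG 54.6 to 64.4, 63.4 and 71.5 to 76.3. PIK3R1 was 24.9 to 30.8, 30.4 and 33.5 to 36.9, and PIK3AP1 85.1 to 96.5, 95.1 and 121 to 129. INPP4A overlapped between the sets, at 15.9 to 19.1, 19.8 and 16.8 to 20.6. For WT, PLCG2 was 42.3 to 43.2 TPM in libraries 1 to 3 and 42.2 to 49.2 in libraries 4 to 6. For each member other than INPP4A, TREM2-R47H libraries 1 to 3 and 7 lay below libraries 4 to 6, and library 7 lay within the range of libraries 1 to 3. Libraries 1 to 3 also lay below libraries 4 to 6 in both SORL1 lines for INPP5D, at 105 to 114 against 115 to 134 TPM in SORL1-KO and 104 to 116 against 123 to 126 in SORL1-A528T. The same held for PIK3CD, at 49.8 to 56.4 against 60.7 to 65.8 and at 51.02 to 58.3 against 59.01 to 73.6 TPM. Library 7 was the highest of each SORL1 line for INPP5D, at 146 and 141 TPM, and in WT and TREM2-KO the 2 sets overlapped for both genes. PIK3AP1 was lower in libraries 1 to 3 in both SORL1 lines and in TREM2-KO (102 to 118 against 123 to 141 TPM). PLCG2 divided so in TREM2-KO and SORL1-A528T, PIK3R1 in both SORL1 lines and INPPL1 in SORL1-A528T. PIK3CG, PIK3R5 and INPP4A divided so in none of these lines, and in WT the 2 sets overlapped for every member. Whether the division differed between lines was not tested. PIK3R5 was below all of WT throughout TREM2-R47H: 39.1 to 42.9 in libraries 1 to 3, 40.01 in library 7 and 44.98 to 48.7 in libraries 4 to 6. The summed level of the 15 microglia and macrophage markers, none of them at 0, moved with the division in TREM2-R47H. It was 6489 to 7092 TPM in libraries 1 to 3, 6607 in library 7 and 7973 to 9540 in libraries 4 to 6. Over all WT libraries it was 8070 to 9675. The markers did not move as one against WT. Mean levels in TREM2-R47H were higher for CX3CR1 (316 against 220 TPM), GPR34 (382 against 252), P2RY12 (40.7 against 35.4), TMEM119 (6.95 against 4.19) and TREM2 (467 against 457). They were lower for the rest of the list. The part of the summed level in the members' levels was not tested.

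**Figure D3:**
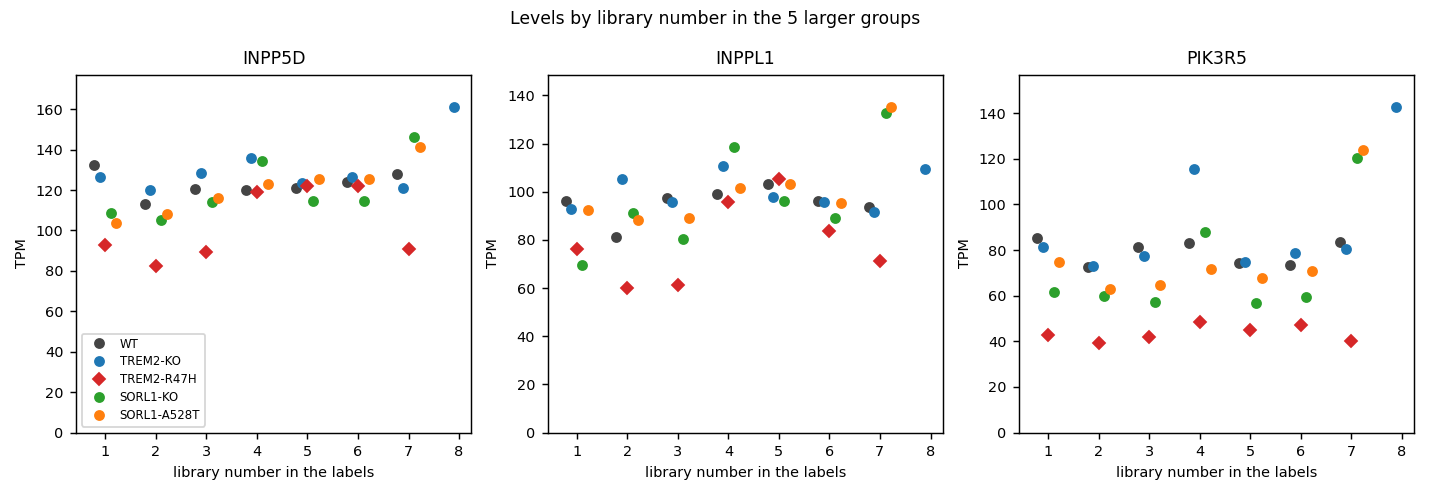
TPM of INPP5D, INPPL1 and PIK3R5 (vertical axes, from 0) against the library number in the labels, in the 5 groups of 7 or 8 libraries. TREM2-R47H (diamonds) lies below the other groups at numbers 1, 2, 3 and 7 for INPP5D and at number 4 (119 TPM), there by under 1 TPM, and among them at 5 and 6, and for PIK3R5 it is the lowest group at each of its 7 numbers.

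Fitted on libraries 1 to 3 alone, the INPP5D difference between TREM2-R47H and WT was -0.46 (log2, limma adjusted p = 0.000259), and on libraries 4 to 6 alone it was -0.01 (0.980). PIK3R5 was called in both sets, at -0.93 (limma adjusted p = 3.04e-06) and -0.70 (0.0318). INPPL1 was at -0.47 (0.00537) and -0.07 (0.819), PIK3CD at -0.42 (0.00285) and -0.14 (0.602), PIK3AP1 at -0.43 (0.00297) and -0.29 (0.203), and INPP4A at -0.46 (0.00629) and -0.24 (0.455). PIK3R1 was also called in libraries 1 to 3, at -0.29 (0.0302), and was at 0.07 (0.693) in libraries 4 to 6. With 3 libraries a side the fits have less power than the whole, both sets were chosen after the data were seen, and the difference between the sets was not tested. The 12 stromal and endothelial markers, none at 0 in either group, summed to 905 to 3205 TPM in WT libraries 4 to 6 and 235 to 269 in TREM2-R47H libraries 4 to 6, and to 189 to 741 and 134 to 271 in libraries 1 to 3. PECAM1 had the highest mean of them in TREM2-R47H, at 144 TPM against 236 in WT. The endothelial markers CDH5, KDR and VWF were at 0.02, 0.05 and 0.90 TPM in TREM2-R47H. COL3A1 was the highest in WT, at 299 TPM against 19.7 in TREM2-R47H, and COL1A1 was at 186 against 16.3. With the score of the 12 markers as a covariate PIK3R5 and INPP4A were the members called.

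**Figure D4:**
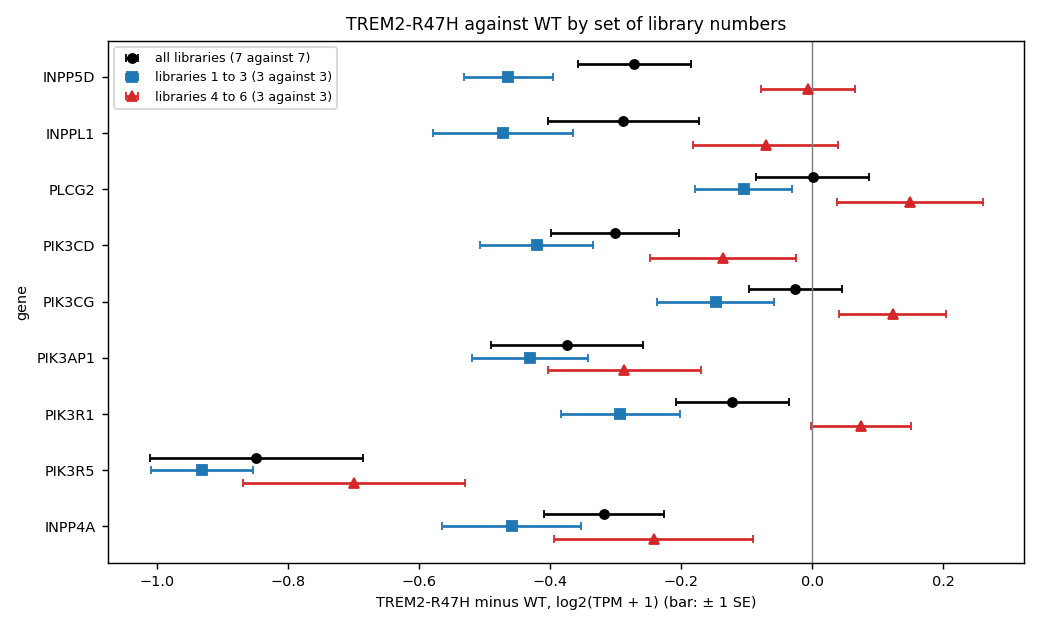
Difference between TREM2-R47H and WT in mean log2(TPM + 1) (horizontal axis) for each gene, with bars of 1 SE, for all libraries (7 against 7), libraries 1 to 3 and libraries 4 to 6 (3 against 3 each). INPP5D is at -0.46 in the first set and -0.01 in the second, and PIK3R5 is negative in both, at -0.93 and -0.70.

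TREM2-KO and TREM2-R47H were compared directly, a comparison that shares its TREM2-R47H libraries with the one above. Again 5 of the 9 genes were called, all higher in TREM2-KO, among 21.3% of all genes called and 14.7% called higher (2180 higher, 977 lower; 1451 and 1388 after median-ratio scaling). PIK3R5 was 73.2 through 79.6 to 143 TPM in TREM2-KO, all above the highest TREM2-R47H library at 48.7 (3.9% of all genes lay wholly above in this way), and the difference was 1.00 ± 0.16 (log2, SE; limma adjusted p = 1.08e-05). INPP5D ran from 120 through 127 to 161 TPM in TREM2-KO; all 8 libraries exceeded the TREM2-R47H mean of 103, and the difference was 0.35 ± 0.08 (limma adjusted p = 0.00197). INPP4A differed by 0.35 (0.00434), PIK3CD by 0.30 (0.0182) and INPPL1 by 0.36 (0.0186). Of these, PIK3R5 was called in 15 of 15 other settings, INPP5D and INPP4A in 14, INPPL1 in 12 and PIK3CD in 11. Without the 3 libraries that stand apart all 5 were still called. In libraries 4 to 6 alone PIK3R5 was the one member called (limma adjusted p = 0.00696).

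Against the SORL1 lines, TREM2-R47H showed fewer calls. PIK3R5 was 56.7 through 59.9 to 120 TPM in SORL1-KO and 63.0 through 70.8 to 124 in SORL1-A528T, and no library of either reached down to the TREM2-R47H range, as for 0.727% and 1.56% of all genes. Library 7 was the highest in both groups, and library 4 of SORL1-KO stood next at 88.1. Against SORL1-KO, PIK3R5 was the 1 member called (-0.66 ± 0.16, log2, SE; limma adjusted p = 0.0239; 2.05% of all genes called, 1.72% lower; called in 10 of 15 other settings), at -0.53 without the 3 libraries that stand apart (0.00921). Against SORL1-A528T, PIK3R5 (-0.77 ± 0.16, limma adjusted p = 0.00331) and INPP4A (-0.36 ± 0.09, 0.0162) were called, with 5.41% of all genes (4.23% lower). Without the libraries that stand apart these were -0.65 (0.0006) and -0.33 (0.0349). INPP4A did not overlap between those groups, 15.9 to 20.6 against 20.8 to 27.0 TPM. The INPP5D difference was -0.23 from SORL1-KO and -0.24 from SORL1-A528T on the log2 scale, and neither was called (limma adjusted p = 0.174 and 0.101).

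None of the 9 genes was called in TREM2-KO against WT (1.61% of all genes called by limma), in SORL1-KO against WT (1.09%), in SORL1-A528T against WT (0.0471%), in CD33 SNP against WT (0%) or between the SORL1 lines (0.0942%). At an unadjusted p below 0.05 the number of members was 0 in each. Over all 14855 genes that number was 1573, 1607, 884, 621 and 333 in the same order. INPP5D was 130 ± 13.3 TPM in TREM2-KO (SD, n = 8), 120 ± 14.9 in SORL1-KO, 121 ± 12.5 in SORL1-A528T (n = 7 each) and 124 ± 14.9 in CD33 SNP (n = 2), next to 123 ± 6.15 in WT. The 95% intervals of these differences from WT were -0.09 to 0.25, -0.22 to 0.13, -0.21 to 0.14 and -0.26 to 0.27 on the log2 scale. The means of TREM2-KO and TREM2-R47H lay on either side of WT for INPP5D, and only the second was called. In TREM2-KO without library 8, which alone had 161 TPM, the INPP5D range was 120 to 136 TPM. The INPP5D differences of TREM2-KO, SORL1-KO and SORL1-A528T from WT were 0.08, -0.04 and -0.03. Without the 3 libraries that stand apart they were 0.04, -0.09 and -0.07.

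The INPP5D SNP line, homozygous for the A allele, had INPP5D at 131 and 132 TPM in its 2 libraries, both within the WT range of 113 to 132. The difference was 0.10 ± 0.13 (log2, SE; 95% interval -0.16 to 0.36; limma adjusted p = 0.792), while the exact permutation test gave p = 0.167 (two-sided; 0.333 adjusted over 6), where 2 against 7 libraries cannot go below 0.0556. The difference was 0.12 after median-ratio scaling and 0.15 after quantile normalization. Each then had that lowest permutation p of 0.0556 (0.170 and 0.308 adjusted over 6). Limma called INPP5D in 0 of 15 other settings. In the main fit none of the 9 genes was called in the INPP5D SNP line, among 0.0337% of all genes. An unadjusted p below 0.05 was found for 1 of the 9 and for 1087 of all 14855 genes. The member was PLCG2, at 50.8 and 55.4 TPM against 40.8 to 49.2 in WT, a difference of 0.27 ± 0.13 with limma adjusted p = 0.667. INPPL1, at 107 and 108 TPM, also lay above the WT range of 81.1 to 103 (difference 0.18, adjusted p = 0.720), and 5.71% of all genes lay wholly above WT in this way. PIK3AP1 was 140 and 184 TPM against 110 to 179 (difference 0.23, adjusted p = 0.675). The 12 stromal and endothelial markers summed to 835 and 2198 TPM in the INPP5D SNP libraries and to 189 to 3205 in WT. With the score of these markers as a covariate limma called none of the 9 genes. The median difference of the other pathway genes, described below, was -0.00043 with the covariate and 0.057 without it. Beyond that fit, the part of these markers in the levels was not tested.

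The other genes of the pathway were taken from 13 lists of enzymes, receptors and adaptors, 85 genes of which 76 passed the filter. In TREM2-R47H against WT 14 of the 76 were lower and 1 was higher, with a median of -0.11, where 8.77% of all genes were called lower, 11.4% in either direction, and the median of all genes was -0.06. Median-ratio scaling changed the split to 8 lower and 4 higher (831 and 600 over all genes), blocking on library number over all libraries to 25 and 4, and libraries 4 to 6 alone to 5 and 1. By role, members included, 3 of 9 inositol 5-phosphatases were called lower (INPP5D, OCRL and INPP5B), 2 of 4 4-phosphatases (INPP4A and PIP4P1), 2 of 7 PI3-kinase regulators (PIK3R5 and PIK3AP1), 2 of 6 PIP kinases (PIP4K2A and PIP5K1C), and 3 of 9 adaptors and receptors of SHIP1 (FCGR2B, DOK2 and GRB2). Of 8 kinases that act on or through PIP3, PDPK1 and AKT1 were called lower, and IMPA1, PLCB3 and PI4KA complete the 14 with IMPA2. Calls numbered 1 of 4 class I catalytic subunits (PIK3CD), 1 of 4 PI4-kinases and 1 of 10 phospholipase C enzymes. The lists of 3-phosphatases (8 genes), class II and III PI3-kinases (4) and Sac-domain phosphatases (3) held 0 called genes. The largest called enzyme difference outside the members was that of IMPA2, an inositol monophosphatase that regenerates free inositol, at 12.2 to 23.3 TPM against 32.5 to 37.4 in WT (-0.91, limma adjusted p = 5.36e-06). PIP4P1, which acts on PI(4,5)P2, was at 25.3 to 34.7 against 35.5 to 41.9 TPM (-0.36, adjusted p = 0.000537). Neither group pair overlapped, and both were called in 15 of 15 other settings.

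PI4KA, which makes PI4P at the plasma membrane, was lower by 0.26 on the log2 scale (limma adjusted p = 0.00131) and PIP4K2A, a kinase of PI5P, by 0.33 (0.00488). FCGR2B, the inhibitory Fc receptor that recruits SHIP1, was at 5.51 to 17.6 TPM in TREM2-R47H, 21.2 to 57.4 in WT and 43.7 to 117 in TREM2-KO. Its differences from WT were -1.51 (limma adjusted p = 0.00104) and 1.14 (0.0399); it shares long stretches with FCGR2A and FCGR2C, so reads may have been divided between them. The single gene called higher in TREM2-R47H was ITPKB, a kinase that converts IP3 into IP4, at 13.3 to 19.95 TPM against 10.4 to 13.7 (0.38, limma adjusted p = 0.00588).

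**Figure D5:**
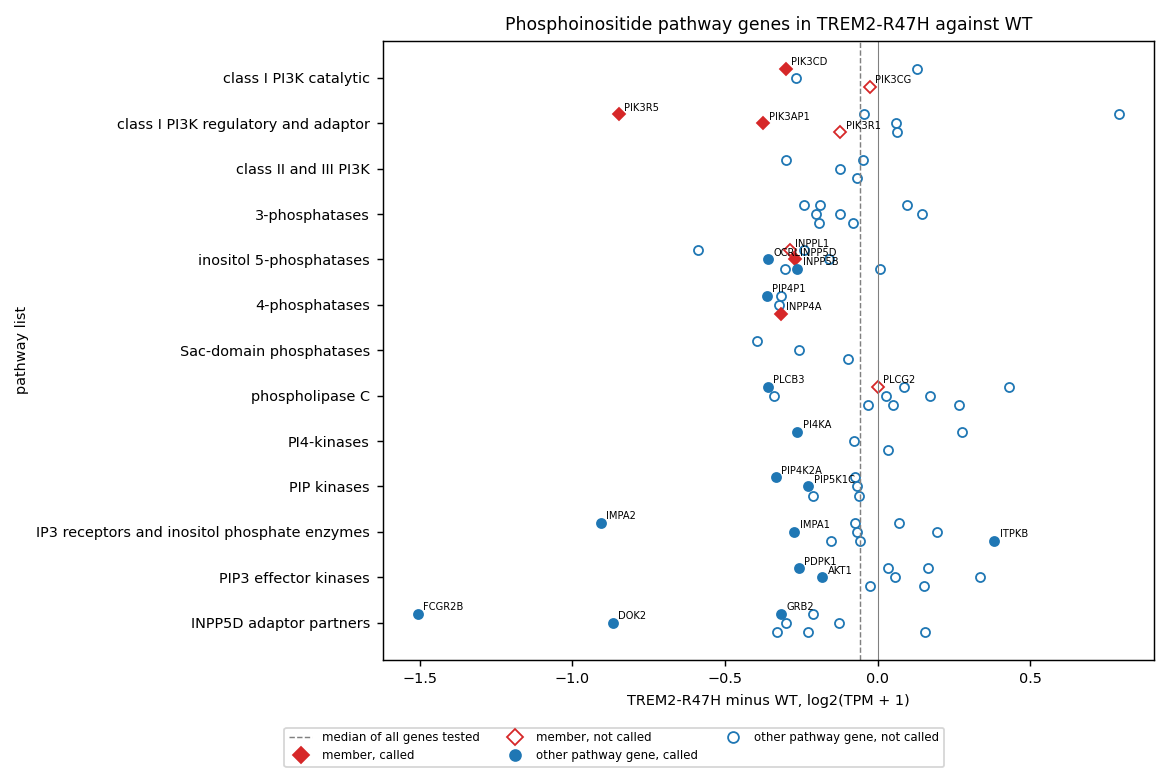
Difference between TREM2-R47H and WT in mean log2(TPM + 1) (horizontal axis) for every listed pathway gene that passed the filter, by list (vertical axis); filled symbols are called by limma, diamonds are the 9 members, and the dashed line is the median of all genes tested. FCGR2B at -1.51, IMPA2 at -0.91, DOK2 at -0.87 and PIK3R5 at -0.85 lie farthest to the left, and ITPKB at 0.38 is the one called to the right.

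In TREM2-KO against WT 3 of the 76 were called, where 1.61% of all genes were: FCGR2B higher, and INPP5A, a phosphatase of soluble IP3, and SGK1, a kinase of the AKT family, lower (-0.47, limma adjusted p = 0.0242, at 0.82 to 1.54 against 1.41 to 3.22 TPM; and -0.44, 0.0442). FCGR2B was called in 12 of 15 other settings, SGK1 in 8 of 15 and INPP5A in 8 of the 14 that kept it. Between TREM2-KO and TREM2-R47H 22 of the 76 were higher and 7 lower in TREM2-KO, where 14.7% of all genes were called higher and 21.3% in either direction. Median-ratio scaling changed this split to 12 and 10, and that of all genes from 2180 higher and 977 lower to 1451 and 1388. The 29 included IMPA2 (1.24, limma adjusted p = 2.07e-09), FCGR2B (2.65, 4.69e-08), PIP4P1 (0.46, 4.23e-06), ITPKB (-0.67, 1.22e-06) and SGK1 (-0.77, 6.23e-06), each called in 15 of 15 other settings. Against SORL1-KO, TREM2-R47H was lower for 3 of the 76 (1.72% of all genes): FCGR2B (-1.66, limma adjusted p = 0.00165), IMPA2 (-0.61, 0.00494) and DOK3 (-0.49, 0.00679), an adaptor that binds SHIP1, called in 15, 12 and 14 of 15 other settings. Against SORL1-A528T it was lower for 8 (4.23% of all genes), among them FCGR2B (-1.86, 0.000273), IMPA2 (-0.68, 0.000788), PIP4P1 (-0.31, 0.00632), PI4KA (-0.21, 0.0224) and OCRL (-0.36, 0.0283), the 5-phosphatase mutated in Lowe syndrome. Of these, FCGR2B was called in 15 of 15 other settings, IMPA2 in 14, PIP4P1 in 12, OCRL in 10 and PI4KA in 9, its smallest difference being -0.06 in libraries 4 to 6 (limma adjusted p = 0.864). In SORL1-KO, SORL1-A528T, CD33 SNP and INPP5D SNP against WT limma called 0 of the 76, with 12, 3, 4 and 6 at an unadjusted p below 0.05. Over all 14855 genes 1607, 884, 621 and 1087 had such a p. None of the 76 was called between the SORL1 lines, with 0 at that p (333 over all genes).

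Across the 40 libraries the genes most like INPP5D in log2(TPM + 1), of 10225 with a mean of at least 5 TPM, were PREX1, an exchange factor for Rac (Pearson r = 0.96), DENND1C (0.95), ARID3B (0.94), ZNF641 (0.94) and RIN3 (0.94). The median over all genes compared was 0.09. Among the members INPPL1 ranked highest, with r = 0.86 and rank 174, and PIK3R5 next, with r = 0.83 and rank 393. PIK3CD, PIK3CG and PIK3R1 had r = 0.72, and INPP4A, PIK3AP1 and PLCG2 had 0.63, 0.63 and 0.59. These points share their groups, their library numbers and a fixed total, and the values describe these libraries.

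Within WT, INPP5D varied little: its SD of log2(TPM + 1) was 0.07, lower than that of all but 5.52% of the genes that passed the filter, whose median SD was 0.19. In TREM2-R47H its SD was 0.24, close to the median of 0.23 there. PIK3R5 had an SD of 0.10 in WT, 0.12 in TREM2-R47H and 0.35, 0.41 and 0.33 in TREM2-KO, SORL1-KO and SORL1-A528T. In the last 3 groups the highest library reached 143, 120 and 124 TPM. Library 4 came next in TREM2-KO (115 TPM) and in SORL1-KO (88.1 TPM). PIK3CG was among the steadiest genes in SORL1-A528T, with an SD of 0.07.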

How the data were processed

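RNA was measured in 40 libraries, and groups came from the labels alone. The authors deposited TPM values; per the submitters' processing notes they used cutadapt 1.18, STAR 2.7, RSEM 1.3.1 and DESeq2 (no version named). Neither genome build nor annotation is given in the sources used here. Columns sum to between 999999.15 and 1000000.76, so precision can be read from the spread between libraries but not from depth. TPM sums to a fixed total, so a change in abundant genes moves all others.

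Changes were tested with limma 3.58.1 (R 4.3.3; trend, robust) on log2(TPM + 1) in 1 fit of all libraries with 7 group means. A fold on this scale understates changes of low genes. The filter was 1 TPM or more in 7 libraries or more. P-values are two-sided, adjusted by Benjamini-Hochberg over 14855 genes in each of 10 comparisons, and called below 0.05. The procedure was tested on simulated data. INPP5D also had two-sided exact permutation tests. Members, lists and markers were chosen with earlier results of these data known. The text names all members in the comparisons where they bear, and up to 5 other called pathway genes with the lowest adjusted p per comparison, plus the other pathway genes called in TREM2-R47H against WT, named after their values were seen. One gene of the pathway lists is not reported here. Symbols were found for 93.5% of IDs.

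Library numbers were taken to pair libraries where every same-numbered pair of residuals correlated above 0.1. This held for TREM2-R47H and WT (0.14 to 0.28), TREM2-KO and WT (0.11 to 0.31) and the 2 SORL1 lines (0.31 to 0.78). In these, the best correlated library bore the same number in 4, 3 and 3 of 7 cases, so the pairing is weak. The alternatives were pseudocounts of 0.1 and 5 TPM, no filter, a filter of 5 TPM, median-ratio scaling, quantile normalization, fits of 2 groups, the library number as a block, arrayWeights, the stromal score as a covariate, averaging libraries 5 and 6, and leaving out each library of the CD33 SNP and INPP5D SNP groups. Chosen later, with the values in view, were a fit without 3 libraries that stand apart, and libraries 1 to 3 or 4 to 6 alone.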

Additional observations from a re-analysis of the deposited data

Results flagged for a closer look

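In 45 checks of a gene within a group of 7 or 8 libraries, 7 had a single library whose gap to the rest was large for the group's range; chance gives about 1 in 20. In library 7 of SORL1-A528T, PIK3R5 was 124 TPM against 63.0 to 74.7 in the others, INPPL1 was 135 against 88.1 to 103, and PIK3R1 was 42.8 against 29.9 to 34.9. In library 7 of SORL1-KO, PIK3R1 was 46.4 TPM against 32.8 to 38.6. INPP5D was 161 TPM in library 8 of TREM2-KO against 120 to 136. These are the 3 libraries with the lowest median correlation with the others. PLCG2 was 63.9 TPM in library 4 of SORL1-KO against 43.9 to 48.6. PIK3CG was 57.2 TPM in WT library 2 against 67.3 to 70.7, the one low value.

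The differences of TREM2-KO and of TREM2-R47H from WT differed from each other, by the direct limma comparison of the 2 lines, for 5 members: PIK3R5 by 1.00, INPPL1 by 0.36, INPP5D by 0.35, INPP4A by 0.35 and PIK3CD by 0.30 on the log2 scale. In each case TREM2-KO was the higher.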

How the results depend on the processing

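PIK3R5 kept its call in TREM2-R47H against WT and in TREM2-KO against TREM2-R47H under each alternative run; other calls moved. Against WT, the 5 members called in TREM2-R47H became 2 with no filter, 1 with median-ratio scaling, 1 with quantile normalization, 3 in the fit of 2 groups, 2 with the stromal score and 1 in libraries 4 to 6. The 5 called between TREM2-KO and TREM2-R47H became 3 with median-ratio scaling, 3 with quantile normalization and 1 in libraries 4 to 6. The 1 called between TREM2-R47H and SORL1-KO became 0 with no filter, quantile normalization, the fit of 2 groups or libraries 4 to 6, 2 with a filter of 5 TPM or libraries 1 to 3, 3 with arrayWeights and 4 with the replicate block in the fit of all libraries. The 2 called against SORL1-A528T became 6 with that block, 6 with arrayWeights, 5 in libraries 1 to 3 and 0 in libraries 4 to 6. In SORL1-KO against WT, where none was called, the block called PIK3CD (1 member), and arrayWeights and libraries 1 to 3 each called PIK3R5 (1 member). In INPP5D SNP against WT the block called 2, PLCG2 (0.38, limma adjusted p = 0.0147) and PIK3AP1 (0.40, 0.0257), although library numbers do not pair those groups. Calls moved beyond the members too. In TREM2-R47H against WT the split over all genes went from 1303 lower and 390 higher to 746 and 600 with quantile normalization. TREM2-R47H was called lower than SORL1-A528T for 8 of the 76 other pathway genes, and for 17 with the block or with arrayWeights. That number was 8 in libraries 1 to 3 and 3 in libraries 4 to 6. For settings other than scaling the share of all genes is not given here. The causes were not tested.

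Signs turned for small differences. In TREM2-R47H against WT, PLCG2 was -0.077 with arrayWeights, -0.024 with libraries 5 and 6 averaged and -0.10 in libraries 1 to 3, PIK3CG was 0.052 with median-ratio scaling, 0.054 with quantile normalization, 0.0053 with the stromal score and 0.12 in libraries 4 to 6, and PIK3R1 was 0.075 in libraries 4 to 6. INPP5D against WT was 0.0068 in SORL1-KO and 0.012 in SORL1-A528T with quantile normalization, 0.0081 and 0.017 with the stromal score, 0.035 in SORL1-A528T libraries 4 to 6, and in CD33 SNP -0.12 without replicate 1 and 0.13 without replicate 2. Leaving out either library of the CD33 SNP or INPP5D SNP group called no member. In the groups that the numbers pair, the block changed no member's call other than those of INPPL1 and INPP5D given above. Median-ratio scaling changed the split of calls over all genes from 49 higher and 256 lower to 66 and 138 for TREM2-R47H against SORL1-KO, from 175 and 628 to 248 and 403 against SORL1-A528T, and from 38 and 124 to 55 and 103 for SORL1-KO against WT.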
